A study of Mus musculus with 8 samples.

Results

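Histone variants and high mobility group (HMG) proteins are chromosomal proteins whose mRNAs were followed here through the differentiation of oligodendrocyte precursor cells (OPCs) into oligodendrocytes (OLs). The 10 genes were *H2afz*, *H2afv*, *H2afx*, *H2afy*, *H3f3a*, *H3f3b*, *H1f0*, *Hmgb1*, *Hmgb2* and *Hmga1*, chosen by symbol out of 23427 entries of the deposited expression table. Each symbol matched 1 entry, and 10 of 10 passed the filter on low values, an FPKM (fragments per transcript kilobase, relative to all mapped fragments) of at least 1 in at least 2 libraries. The cells were wild-type primary OPCs of the strain C57BL/6J, isolated by immunopanning from the pooled cortices of pups at postnatal day 7. They were sampled on Day 0, Day 1, Day 2 and Day 3 after growth factors were withdrawn and the thyroid hormone T3 was added, with 2 replicates per day and 8 libraries in all. Every library came from wild-type cells in culture, Day 0 being the only group before the change of medium, so time in the new medium and the stage of the cells cannot be told apart.

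In a nucleosome, DNA is wound around the core histones H2A, H2B, H3 and H4, and linker histone H1 binds where the DNA enters and leaves. The bulk of histone protein is made from replication-dependent genes during DNA synthesis, whereas variant histones are encoded by separate genes, most of them expressed outside S phase as well, and are deposited at particular places by dedicated chaperones. HMG proteins are abundant non-histone proteins that bend DNA or bind nucleosomes and so change how compact chromatin is. OPCs divide, and they leave the cell cycle and compact their chromatin as they become OLs.

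Marker genes were set against the labels of the days. Of 6 OPC markers, 5 were lower on Day 3 than on Day 0, and 6 of 6 OL markers were higher (limma). The 10 proliferation markers summed to 1114 and 938 FPKM on Day 0 and to 66.2 to 107 FPKM in the 6 later libraries, and 10 of 10 were lower on Day 1 and on Day 3. The 6 astrocyte markers summed to 87.7 to 155 FPKM in replicate 1 and to 298 to 896 FPKM in replicate 2, rising in replicate 2 from Day 0 to Day 3, and their part in the results was not tested. The depth, read from the steps between low FPKM values, was about 950000 fragments in the shallowest library, Day 3 replicate 2, and 1520000 in the deepest, Day 0 replicate 1. In bulk samples such as these, fewer cells of a type and less RNA per cell cannot be told apart.

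The promoters of 4 genes are shown first, because they cover the deepest fall (*Hmgb2*), the closely related genes of the variant H2A.Z (*H2afz* and *H2afv*) and the gene that did not fall (*H3f3a*). RefSeq gave 300-base promoter windows on GRCm38.p6 for 9 of the 10 genes, *H2afx* not being among them. Each runs from 250 bases before the start that goes with the window to 50 after it. That start can differ from the gene start in the GENCODE positions given further below. The *Hmgb2* window ends before the GENCODE start at 57511907, and the windows of *H3f3b* and *Hmgb1* lie inside the GENCODE genes. Capitals mark CCAAT or its reverse complement ATTGG, the letters bound by the factor NF-Y, and TTTGAA or its reverse complement TTCAAA, the core of the cell cycle homology region (CHR) of genes expressed in dividing cells. No match of the first overlapped a match of the second. The *Hmgb2* window is chr8:57511593-57511892 (plus strand), *H2afz* chr3:137864237-137864536 (plus strand), *H2afv* chr11:6444394-6444693 (minus strand) and *H3f3a* chr1:180813556-180813855 (minus strand).
Hmgb2: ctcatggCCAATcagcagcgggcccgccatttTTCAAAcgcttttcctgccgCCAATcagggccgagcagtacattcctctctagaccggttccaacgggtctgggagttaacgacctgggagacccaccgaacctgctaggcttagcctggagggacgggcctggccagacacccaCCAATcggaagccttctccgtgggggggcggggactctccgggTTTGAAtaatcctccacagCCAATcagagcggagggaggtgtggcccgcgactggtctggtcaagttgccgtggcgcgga
H2afz: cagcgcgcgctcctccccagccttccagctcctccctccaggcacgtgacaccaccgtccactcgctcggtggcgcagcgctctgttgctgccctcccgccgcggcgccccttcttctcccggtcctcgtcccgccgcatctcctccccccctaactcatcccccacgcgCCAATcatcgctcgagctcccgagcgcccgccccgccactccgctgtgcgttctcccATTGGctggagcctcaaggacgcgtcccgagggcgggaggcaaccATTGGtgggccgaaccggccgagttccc
H2afv: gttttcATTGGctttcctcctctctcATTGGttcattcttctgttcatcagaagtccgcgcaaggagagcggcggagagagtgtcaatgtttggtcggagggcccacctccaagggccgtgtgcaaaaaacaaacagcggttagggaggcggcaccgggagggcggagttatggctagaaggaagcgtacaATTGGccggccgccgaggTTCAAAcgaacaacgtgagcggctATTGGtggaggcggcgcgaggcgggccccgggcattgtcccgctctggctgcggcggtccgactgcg
H3f3a: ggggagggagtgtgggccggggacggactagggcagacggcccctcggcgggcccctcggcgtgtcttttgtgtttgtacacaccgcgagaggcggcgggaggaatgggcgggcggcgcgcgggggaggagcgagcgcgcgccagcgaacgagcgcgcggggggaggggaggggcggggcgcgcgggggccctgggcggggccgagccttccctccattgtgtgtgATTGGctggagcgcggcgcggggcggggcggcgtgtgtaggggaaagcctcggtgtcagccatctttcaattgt

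The *Hmgb2* window held 4 CCAAT matches, at positions -243, -198, -73 and -11 counted from the start that goes with the window. It also held 2 TTTGAA matches, at -218 and -30. *H2afz* held 3 CCAAT matches and no TTTGAA, *H2afv* held 4 and 1, and *H3f3a* held 1 and none. Of the windows not shown, that of *H3f3b* held 4 CCAAT matches and a TATAAA match at -27, 1 of the *Hmgb1* windows held 3, and those of *H2afy*, *H1f0* and *Hmga1* held none. Of the 11 windows of these 9 genes, *Hmgb1* and *Hmga1* having more than 1, 5 held at least 3 CCAAT matches, against 3.37% of 32851 mouse promoter windows of the same length. At least 1 CCAAT was found in 37.4% of those windows, at least 1 TTTGAA in 17.9% and at least 2 in 2.31%, and at least 1 TATAAA, on either strand, in 13.6%. These matches describe letters in the windows only.

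Most of the 10 mRNAs fell as the cells differentiated, and most of the fall came in the first day. On Day 3 against Day 0, 8 of the 10 were lower and 0 were higher, where 26.3% of the 12208 genes tested were called lower and 12% higher (limma on log2(FPKM + 1), adjusted p under 0.05). The exceptions were *H3f3a* and *Hmga1*. The median log2 fold change was -1.49 over the 10 genes and -0.31 over all genes tested, and 9 of the 10 were below the latter. On Day 1 against Day 0, 7 of 10 were lower, against 7.56% of all genes, with medians of -1.24 and -0.07. On Day 2 against Day 1 only *H2afz* was called, lower, against 1.73% of all genes. Without Day 2 replicate 2, limma called 0 of all genes lower in that comparison, with 1033 at an unadjusted p under 0.05. On Day 3 against Day 2 limma called 0 of 10, against 0.0491% of all genes called lower. There 1 of 10 (*Hmgb1*) had an unadjusted p under 0.05, as had 1773 of the 12208 genes tested (limma). These comparisons share their libraries and are not independent of each other.

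**Figure D1:**
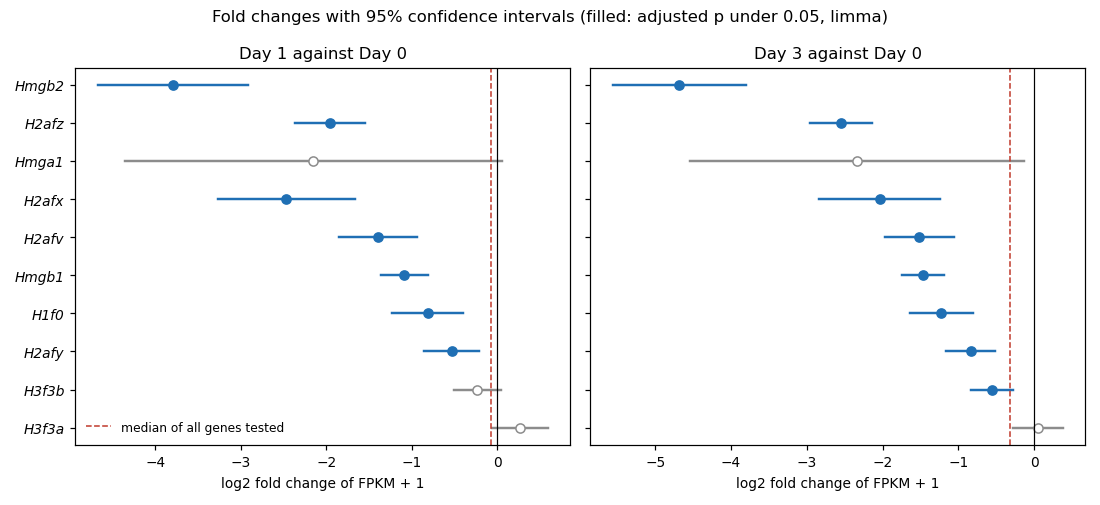
Log2 fold change of FPKM + 1 (horizontal axis) of each of the 10 genes on Day 1 and Day 3 against Day 0, with 95% confidence intervals from limma, filled points for an adjusted p under 0.05 and a dashed line at the median of all genes tested. On Day 3, 8 genes are filled and to the left of the line, *Hmgb2* farthest at -4.68, whereas the interval of *H3f3a* runs from -0.28 to 0.38.

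The slope of log2(FPKM + 1) on day was negative and past the threshold for 6 of the 10 genes (two-sided exact permutation test that enumerated 2520 placements of the days on the libraries, adjusted over all genes), against 15.9% of all genes. These were *H3f3b*, *Hmgb1*, *H1f0*, *H2afy*, *H2afz* and *Hmgb2*. With the replicate number as a block, 3 of them (*H3f3b*, *Hmgb1* and *H1f0*) passed, and *H2afy*, *Hmgb2* and *H2afz* had adjusted p of 0.0630, 0.0630 and 0.0772 in the exact permutation test. After median ratio scaling 2 of the 6 (*H3f3b* and *H1f0*) passed, and *Hmgb1*, *Hmgb2*, *H2afz* and *H2afy* had adjusted p of 0.0555, 0.0580, 0.0667 and 0.0725 in the same test. The slopes of *H2afz* and *Hmgb2* did not pass without the filter either (0.0523 each), nor did that of *H2afz* with the libraries brought to the same sum (0.0507). The slopes of *H3f3b* and *Hmgb1* passed without any 1 library, and that of *H1f0* did so except without Day 2 replicate 2 or Day 3 replicate 2 (0.0568 and 0.0634, exact permutation test). That of *H2afy* passed only without Day 3 replicate 1 and that of *Hmgb2* only without Day 1 replicate 2 or Day 3 replicate 1, whereas that of *H2afz* passed in no fit that left a library out (exact permutation adjusted p of 0.0553 to 0.0934).
The scaling of the libraries sets how many of all genes are called in each direction. On Day 3 against Day 0 the deposited FPKM gave 1460 genes higher and 3207 lower, and median ratio scaling gave 2137 and 2045. On Day 2 against Day 1 the counts were 264 and 211 as deposited and 371 and 103 after median ratio scaling. For the slope they were 846 and 1939 as deposited, 1319 and 1038 after median ratio scaling, and 1010 and 1364 with the libraries brought to the same sum.

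**Figure D2:**
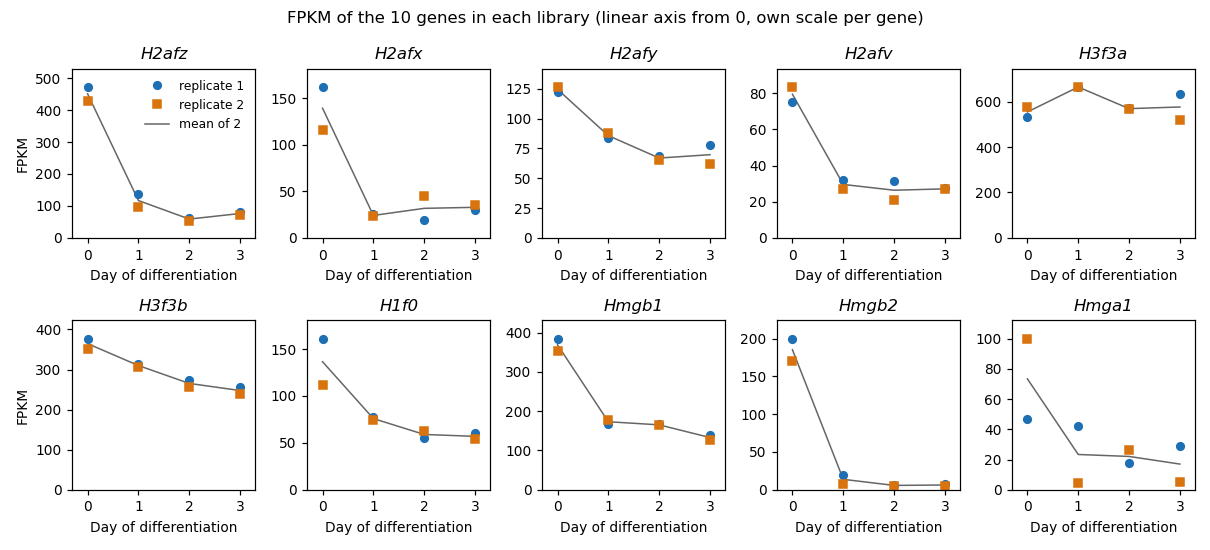
FPKM (vertical axis, from 0, a separate scale for each gene) of the 10 genes on Day 0 to Day 3, with a point per library (circles for replicate 1, squares for replicate 2) and a line through the mean of 2. *Hmgb2* drops from 200 and 170.4 FPKM on Day 0 to between 4.74 and 7.15 FPKM on Day 2 and Day 3, *H3f3a* stays between 518 and 666 FPKM, and the replicates of *Hmga1* lie far apart on Day 0, Day 1 and Day 3.

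*H2afz* and *H2afv* encode the nearly identical forms of H2A.Z, the H2A variant found at promoters and enhancers and exchanged into nucleosomes by the SRCAP and p400 complexes. *H2afz* lies on chr3:137864487-137866922 (GRCm38, plus strand) and *H2afv* on chr11:6427229-6444443 (minus strand). *H2afz* measured 473 and 428 FPKM at Day 0, 136 and 97.2 at Day 1, 63.5 and 54.1 at Day 2, then 79.5 and 73.1 at Day 3 (replicate 1 and replicate 2). The days did not overlap, and the lowest level was on Day 2. It fell by 1.96 on the log2 scale from Day 0 to Day 1 (SE 0.18, adjusted p = 0.000814, limma) and then fell by 0.96 to Day 2 (SE 0.18, adjusted p = 0.0296, limma). The latter call was lost without Day 0 replicate 1, Day 0 replicate 2, Day 1 replicate 1, Day 2 replicate 1 or Day 2 replicate 2 (limma adjusted p of 0.0634 to 0.202), without the filter (0.0557) and with eBayes without a trend (0.0855). Day 3 was 0.37 above Day 2, which was not past the threshold (SE 0.18, adjusted p = 0.385, limma). From Day 0 to Day 3 *H2afz* fell by 2.55 (SE 0.18, adjusted p = 7.5e-05, limma), and its Day 3 mean was 16.9% of that of Day 0.

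*H2afv* measured 75.3 and 83.7 FPKM at Day 0, 31.9 and 27.2 at Day 1, 31.6 and 21.1 at Day 2, then 27.5 and 26.8 at Day 3. The later days overlapped each other and lay below Day 0. The level fell by 1.40 to Day 1 (SE 0.20, adjusted p = 0.00301, limma) and fell by 1.52 to Day 3 (SE 0.20, adjusted p = 0.000753, limma). In FPKM, which is per length, *H2afz* was 6.29 and 5.12 times the level of *H2afv* on Day 0 and 2.90 and 2.73 times on Day 3. Of the 31-base stretches of the coding transcripts of *H2afz*, 73.9% also occur in transcripts of other genes, and *Tmcc1* alone holds 58.4% of the stretches of *H2afz*, so its value depends on how shared fragments were counted. For *H2afv* this share was 0.981%.

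*H2afx* encodes H2AX, the variant whose phosphorylated form marks DNA strand breaks. It lies on chr9:44334694-44336077 (GRCm38, plus strand). It measured 163 and 116 FPKM at Day 0, 25.2 and 23.0 at Day 1, 18.7 and 44.8 at Day 2, then 30.4 and 35.3 at Day 3. Both Day 0 libraries were above all later ones, and Day 2 replicate 2 was the highest of the later libraries. *H2afx* fell by 2.47 to Day 1 (SE 0.35, adjusted p = 0.00295, limma) and fell by 2.04 to Day 3 (SE 0.35, adjusted p = 0.00265, limma). Its slope was not past the threshold (adjusted p = 0.194, exact permutation test). With its 1 annotated transcript of 1384 bases, its values stand for about 342 and 195 fragments on Day 0 and 31 to 82 in the later libraries.

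*H2afy* encodes macroH2A1, which carries a large globular domain and is enriched on silent chromatin such as the inactive X chromosome. It lies on chr13:56073619-56136361 (GRCm38, minus strand). Its level was 122 and 127 FPKM at Day 0, 83.7 and 87.8 at Day 1, 68.3 and 65.6 at Day 2, then 77.7 and 61.8 at Day 3. Day 0 was above every later library, and Day 2 and Day 3 overlapped. From Day 0 to Day 3 it fell by 0.84, past the threshold (SE 0.14, adjusted p = 0.00241, limma). The change of -0.53 by Day 1 had an adjusted p of 0.0427 (limma), which rose to 0.129 to 0.207 without any 1 of the Day 0 and Day 1 libraries and to 0.0678 and 0.0676 without Day 2 replicate 1 or 2. It was also lost after median ratio scaling (0.0637), with the libraries brought to the same sum (0.0738), without the filter (0.0511) and with eBayes without a trend (0.124).

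The makeup of the summed FPKM of these H2A variant genes shifted. Their sum was 834 and 755 FPKM on Day 0 and 215 and 197 FPKM on Day 3. *H2afz* made up 56.8% and 56.7% of it on Day 0 and 37.0% and 37.1% on Day 3, while *H2afy* went from 14.7% and 16.8% to 36.1% and 31.4%. *H2afy* exceeded *H2afz* on Day 2 in both replicates, at 37.5% and 35.3% against 34.8% and 29.2%, and the levels of both overlapped on Day 3.

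*H3f3a* and *H3f3b* encode the same protein, H3.3, which replaces H3 outside replication and is loaded by HIRA on active genes and by DAXX and ATRX on repeats. *H3f3a* lies on chr1:180800832-180813943 (GRCm38, minus strand) and *H3f3b* on chr11:116021912-116027962 (minus strand). *H3f3a* was the highest of the 10 genes on every day, at 532 and 577 FPKM at Day 0, 663 and 666 at Day 1, 571 and 567 at Day 2, then 635 and 518 at Day 3. The Day 3 libraries enclosed the Day 0 range. The difference between Day 3 and Day 0 was 0.05, with a 95% interval of -0.28 to 0.38 (adjusted p = 0.806, limma), and on Day 1 it was 0.26 (SE 0.14, adjusted p = 0.289, limma).

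*H3f3b* measured 377 and 352 FPKM at Day 0, 313 and 307 at Day 1, 274 and 257 at Day 2, then 256 and 239 at Day 3. No day overlapped the next, each being lower than the day before. Its slope was -0.19 per day (adjusted p = 0.0146, exact permutation test), and from Day 0 to Day 3 it fell by 0.56 (SE 0.12, adjusted p = 0.0075, limma), the smallest fall called among the 10 genes. The call was lost after median ratio scaling (-0.24, adjusted p = 0.142, limma) and without Day 0 replicate 1 (-0.51, adjusted p = 0.0632, limma). The summed FPKM of both H3.3 genes was 909 and 929 on Day 0 and 890 and 757 on Day 3, and the share of *H3f3a* in it was 58.5% and 62.1% on Day 0 and 71.3% and 68.4% on Day 3.

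*H1f0* encodes H1.0, the linker histone known for accumulating in cells that stop dividing. It lies on chr15:79028450-79030504 (GRCm38, plus strand). It measured 161 and 112 FPKM at Day 0, 77.6 and 74.1 at Day 1, 55.6 and 62.3 at Day 2, then 60.1 and 53.8 at Day 3. Day 0 lay above every later library, and its replicates differed more than those of any other day. The mRNA fell by 1.23 to Day 3 (SE 0.18, adjusted p = 0.00132, limma) and fell by 0.82 to Day 1 (SE 0.18, adjusted p = 0.0222, limma). The Day 1 call was lost without Day 0 replicate 1, Day 1 replicate 1 or Day 1 replicate 2 (limma adjusted p of 0.134, 0.0682 and 0.114) and with eBayes without a trend (0.0672). The values of *H1f0* stand for about 503 and 278 fragments on Day 0 and 105 to 195 in the later libraries.

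*Hmgb1* and *Hmgb2* encode DNA-bending proteins with paired HMG boxes. HMGB1 is expressed in nearly all cells and also acts outside the cell as an alarm signal, and HMGB2 is highest in dividing cells. *Hmgb1* lies on chr5:149046702-149184489 (GRCm38, minus strand), where 7 annotated genes overlap it, and *Hmgb2* on chr8:57511907-57515999 (plus strand). *Hmgb1* measured 385 and 354 FPKM at Day 0, 169 and 178 at Day 1, 166 and 164 at Day 2, then 139 and 127 at Day 3, the days not overlapping. It fell by 1.09 to Day 1 (SE 0.12, adjusted p = 0.00128, limma) and fell by 1.47 to Day 3 (SE 0.12, adjusted p = 0.000121, limma), with a slope of -0.45 per day (adjusted p = 0.0146, exact permutation test). The Day 2 to Day 3 step came to -0.31 (SE 0.12, adjusted p = 0.282, limma).

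*Hmgb2* showed the deepest fall of the 10 genes. It measured 200 and 170.4 FPKM at Day 0, 20.0 and 7.55 at Day 1, 6.71 and 4.74 at Day 2, then 7.15 and 5.43 at Day 3. Both Day 0 libraries were above the later ones by a wide gap, and the replicates of Day 1 lay apart. The level fell by 3.79 to Day 1 (SE 0.38, adjusted p = 0.00106, limma) and fell by 4.68 to Day 3 (SE 0.38, adjusted p = 0.000122, limma), and the Day 0 mean was 29.4 times the Day 3 mean. Only 0.156% of the genes tested had a lower log2 fold change from Day 0 to Day 3. The step of -1.01 from Day 1 to Day 2 had an adjusted p of 0.176 and passed without Day 1 replicate 2 (-1.66, adjusted p = 0.0403, limma). At this depth the Day 3 values of *Hmgb2* stand for about 7.7 and 5.2 fragments per kilobase of transcript, so its level after Day 1 is known only roughly. The summed FPKM of *Hmgb1* and *Hmgb2* went from 585 and 524 on Day 0 to 146 and 133 on Day 3, and the share of *Hmgb2* in it from 34.2% and 32.5% to 4.91% and 4.09%. Transcripts of other genes, largely processed pseudogenes, hold 28.3% of the 31-base stretches of *Hmgb1* and 24.1% of those of *Hmgb2*.

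*Hmga1* encodes a small protein that binds the minor groove of AT-rich DNA and is typical of dividing and undifferentiated cells. It lies on chr17:27556497-27563674 (GRCm38, plus strand). It measured 46.8 and 100.1 FPKM at Day 0, 42.0 and 4.68 at Day 1, 17.6 and 26.4 at Day 2, then 28.6 and 5.35 at Day 3. The replicates differed several fold on Day 1 and Day 3, and the later libraries lay below both Day 0 libraries. The values of Day 1 replicate 2 and Day 3 replicate 2 stand for only about 5.9 and 5.1 fragments per kilobase of transcript. The difference of -2.34 on Day 3 was not past the threshold (SE 0.96, adjusted p = 0.0877, limma), nor was that of -2.15 on Day 1 (SE 0.96, adjusted p = 0.197, limma). Leaving out Day 1 replicate 1, Day 1 replicate 2 or Day 3 replicate 1 brought the Day 3 difference past it (limma adjusted p of 0.0335, 0.0331 and 0.0431), and leaving out Day 1 replicate 1 did so for Day 1 (-3.61, adjusted p = 0.0404, limma). Of the 31-base stretches of the coding transcripts of *Hmga1*, 62.1% also occur in transcripts of other genes, and all of these occur in *Hmga1b*. The values of *Hmga1* therefore depend on how shared fragments were counted.

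Within each set of related genes the balance shifted with time. The difference in log2(FPKM + 1) between *H2afz* and *H2afv* fell by 0.39 per day (p = 0.0143, exact permutation test), that between *H3f3a* and *H3f3b* rose by 0.18 per day (p = 0.0103, exact permutation test) and that between *Hmgb1* and *Hmgb2* rose by 1.06 per day (p = 0.0183, exact permutation test). Adjusted over these 3 pairs, each p was 0.0183, and with the replicate number as a block each was 0.0313 (exact permutation tests). Without Day 0 replicate 1 each adjusted p was 0.0524, and without Day 0 replicate 2 each was 0.0508. For *H3f3a* and *H3f3b* it was also 0.0524 without Day 3 replicate 1 (exact permutation tests). In FPKM the ratio of *H3f3a* to *H3f3b* was 1.41 and 1.64 on Day 0 and 2.08 to 2.48 later, and that of *Hmgb1* to *Hmgb2* was 1.92 and 2.07 on Day 0 and 8.44 to 34.6 later. The ratios of the later days did not overlap those of Day 0 in any of the 3 pairs. How often the ratios of other gene pairs separate in this way was not counted. The change was not even over the days. The log2 difference between *H2afz* and *H2afv* was lowest on Day 2 (0.98 and 1.32), and that between *Hmgb1* and *Hmgb2* was highest on Day 2 (4.44 and 4.85). The genes of a pair share no stretch of 31 bases in their coding transcripts (0 in each pair). Each gene also shares stretches with transcripts outside its pair, 31.6% of those of *H3f3a* and 13.6% of those of *H3f3b*, so the ratios depend on how such fragments were counted.

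**Figure D3:**
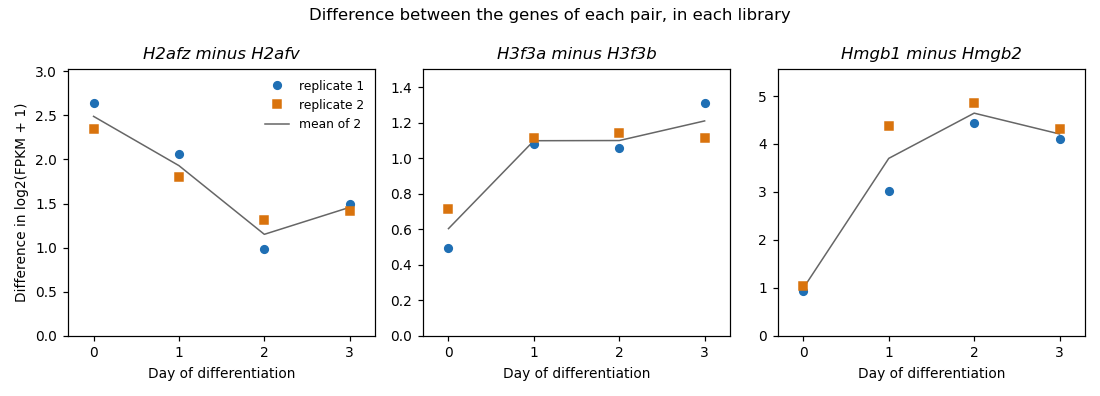
Difference in log2(FPKM + 1) between the genes of each pair (vertical axis, from 0, a separate scale for each pair) on Day 0 to Day 3, with circles for replicate 1, squares for replicate 2 and a line through the mean of 2. *H2afz* minus *H2afv* drops from 2.64 and 2.34 on Day 0 to 1.5 and 1.41 on Day 3, while *Hmgb1* minus *Hmgb2* climbs from 0.94 and 1.05 to 4.10 and 4.32. The former is lowest and the latter highest on Day 2.

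On the FPKM scale the order of the 10 genes changed between Day 0 and Day 3. On Day 0 it was *H3f3a*, *H2afz*, *Hmgb1*, *H3f3b*, *Hmgb2*, *H2afx*, *H1f0*, *H2afy*, *H2afv* and *Hmga1*, where *Hmgb1* overlapped *H3f3b*, *H2afx* overlapped *H1f0*, *H1f0* overlapped *H2afy* and *H2afv* overlapped *Hmga1*. On Day 3 it was *H3f3a*, *H3f3b*, *Hmgb1*, *H2afz*, *H2afy*, *H1f0*, *H2afx*, *H2afv*, *Hmga1* and *Hmgb2*, where *H2afz* overlapped *H2afy*, *H2afv* overlapped *Hmga1* and *Hmga1* overlapped *Hmgb2*. *Hmgb2* thus went from the fifth to the last place. The 10 genes summed to 2536 and 2420 FPKM on Day 0 and to 1340 and 1146 FPKM on Day 3, of which *H3f3a* made up 21.0% and 23.9% on Day 0 and 47.4% and 45.2% on Day 3.

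In both replicate series every gene but *H3f3a* was lower on Day 3 than on Day 0. The amounts were close for some genes and not for others. How many of all genes were lower in both series was not counted. The median over all genes tested was itself -0.31 for Day 3 against Day 0, so direction alone does not set these genes apart. For *Hmga1* the difference was not past the threshold (adjusted p = 0.0877, limma). The astrocyte markers were higher in replicate 2, and their part in these changes was not tested. From Day 0 to Day 3 the change in replicate 1 and replicate 2 was -2.56 and -2.54 for *H2afz*, -4.62 and -4.74 for *Hmgb2*, -1.47 and -1.47 for *Hmgb1*, and -0.56 and -0.55 for *H3f3b*. It was -2.38 and -1.69 for *H2afx*, -1.41 and -1.04 for *H1f0*, -1.42 and -1.61 for *H2afv* and -0.65 and -1.03 for *H2afy*. *H3f3a* went opposite ways, by 0.25 and -0.16, and *Hmga1* changed by -0.69 and -3.99. Of the whole change, the part reached by Day 1 was 69.9% and 83.9% for *H2afz*, 70.5% and 91.3% for *Hmgb2*, 80.7% and 67.5% for *Hmgb1* and 48.1% and 35.7% for *H3f3b*.

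The courses most like those of the 10 genes were sought among 6481 genes with a mean of at least 10 FPKM, as the root mean square difference of the centred log2(FPKM + 1) over the 8 libraries. For *Hmgb2* the nearest were *Foxm1* (0.25), *Bmp7* (0.26) and *Ncapd2* (0.27), and for *H2afz* *Dek* (0.16), *Tmpo* (0.18) and *Dnmt1* (0.18). For *Hmgb1* they were *Ssrp1* (0.064), *Cse1l* (0.088) and *Ran* (0.091), and for *H1f0* *Supt16h* (0.12), *Trim37* (0.13) and *Srsf4* (0.13). *H2afy* lay near *Mthfd1* (0.067) and *Srsf1* (0.080), *H2afv* nearest to *Ncaph2* (0.12), *Ahcy* (0.14) and *Ranbp9* (0.15), and *H2afx* to *Fam83d* (0.28), *Hmgn2* (0.33) and *F3* (0.35). *H3f3a* lay nearest to *Mbd6* (0.042), *Jtb* (0.049) and *Apba3* (0.051), and *H3f3b* to *Eif3c* (0.050), *Ercc3* (0.051) and *U2af2* (0.056). No gene came close to *Hmga1*, whose nearest, *2610017I09Rik*, differed by 0.70, followed by *Dll1* (0.71) and *Fam5b* (0.74). All of these are descriptions over the same 8 libraries.

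Of a list of other histone genes, most of them variants, 8 were tested. On Day 3 against Day 0, 4 were lower, 2 were higher and 2 did not pass (limma). The median was -0.22 (0.09 after median ratio scaling, with as many calls). Both genes that were higher, *Hist3h2a* and *Hist2h3c2*, are also counted below as replication-dependent, as is *Hist3h2ba*, which did not pass. Of the rest, *H2afy2*, *Hp1bp3*, *Cenpa* and *H1fx* were lower and *H2afj* did not pass. For this list and those below, 26.3% of all genes tested were called lower in this comparison and 12% higher. *Cenpa*, the H3 variant of centromeres, measured 83.4 and 66.4 FPKM on Day 0 and 1.37 and 3.12 FPKM on Day 3, and fell by 4.59 (SE 0.54, adjusted p = 0.000451, limma). *H1fx*, a linker histone, fell from 87.2 and 78.3 to 9.50 and 8.84 FPKM, a log2 fold change of -3.04 (SE 0.34, adjusted p = 0.000355, limma). *Hist3h2a*, a replication-dependent H2A gene outside the main clusters, was higher on Day 3 by 0.74 (SE 0.17, adjusted p = 0.0106, limma) at 50.7 and 38.3 against 24.9 and 27.0 FPKM. *Hist2h3c2* rose by 2.69 (SE 0.76, adjusted p = 0.0240, limma) from 0 and 4.63 to 11.1 and 18.5 FPKM. *H2afy2*, which encodes macroH2A2, fell by 1.17 (SE 0.18, adjusted p = 0.00170, limma), and 4 genes of this list were at 0 in every library.

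Among 12 other HMG genes tested, 7 were lower on Day 3, 1 was higher and 4 did not pass (limma), with a median of -0.58. After median ratio scaling 5 were lower and 1 was higher. The HMGN proteins bind nucleosomes directly, and *Hmgn5* fell from 43.4 and 50.9 FPKM to 3.85 and 3.28 FPKM, a log2 fold change of -3.40 (SE 0.25, adjusted p = 8.42e-05, limma). *Hmgb3*, the third member of the HMGB family, fell from 111 and 129 to 13.3 and 11.98 FPKM, a log2 fold change of -3.15 (SE 0.17, adjusted p = 4.78e-05, limma). *Hmgn2*, with 749 and 744 FPKM on Day 0 above each of the 10 genes described here, had 146 and 169 FPKM on Day 3. *Hmga2*, the relative of *Hmga1*, had 4.21 and 6.25 FPKM on Day 0 and was listed at 0 in both Day 3 libraries. *Hmgxb3*, which carries an HMG box, was the gene that rose, by 0.59 (SE 0.16, adjusted p = 0.0200, limma).

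The proteins that carry and exchange histones were represented by 28 genes, of which 19 were lower on Day 3, 0 were higher and 9 did not pass (limma), with a median of -1.30. The largest falls were those of *Chaf1b* (-3.27, SE 0.47, adjusted p = 0.00115, limma) and *Chaf1a* (-2.88, SE 0.41, adjusted p = 0.00107, limma), subunits of CAF-1, which places H3 and H4 behind the replication fork. Of the genes that load H3.3, *Hira* fell by 0.89 (SE 0.19, adjusted p = 0.00714, limma) and *Atrx* fell by 0.58 (SE 0.16, adjusted p = 0.0225, limma), whereas the change of *Daxx* was -0.19 (SE 0.20, adjusted p = 0.483, limma). After median ratio scaling *Atrx* did not pass (-0.27, adjusted p = 0.201, limma) and *Daxx* was at 0.10. Genes of the list whose proteins act with HIRA did not pass. The changes of *Ubn1*, *Ubn2*, *Asf1a* and *Cabin1* were 0.016, 0.021, 0.061 and -0.34 (adjusted p of 0.959, 0.948, 0.87 and 0.201, limma). Of those that handle H2A.Z, *Anp32e*, which removes it, fell by 1.29 (SE 0.13, adjusted p = 0.000248, limma) and *Vps72* fell by 1.08 (SE 0.20, adjusted p = 0.00343, limma). *Ep400*, the ATPase of the p400 complex, changed by -0.48 (SE 0.18, adjusted p = 0.0637, limma). Of further exchange genes in the list, *Yeats4*, *Ruvbl2* and *Ruvbl1* changed by -1.405, -1.31 and -1.055 (adjusted p of 0.00272, 0.00159 and 0.00365, limma). *Znhit1* did not pass (0.068, adjusted p = 0.807, limma). *Hira*, *Atrx*, *Daxx*, *Ubn1*, *Ubn2*, *Asf1a*, *Cabin1*, *Anp32e*, *Vps72*, *Ep400*, *Yeats4*, *Ruvbl2*, *Ruvbl1*, *Znhit1*, *H2afy2*, *Hmgn2* and *Hmga2* were named after their values were seen.

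Of 8 genes that act with phosphorylated H2AX, 4 were lower on Day 3 and 0 were higher (limma), where 26.3% of all genes were lower, with a median of -0.74. After median ratio scaling 3 were lower and 0 were higher, with a median of -0.46. *Mdc1*, which binds phosphorylated H2AX, fell from 30.7 and 23.3 to 7.55 and 8.23 FPKM, a log2 fold change of -1.64 (SE 0.21, adjusted p = 0.0007, limma), and *Brca1*, a repair factor, fell by 1.59 (SE 0.35, adjusted p = 0.00861, limma). Of 7 receptors and partners of HMGB1, 3 passed the filter. *Trp53*, the tumour suppressor p53, fell by 1.17 (SE 0.27, adjusted p = 0.00993, limma), and the chemokine receptor gene *Cxcr4* and the receptor gene *Ager* did not pass. *Tlr2* and *Tlr4* were at 0 in every library.

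The replication-dependent histone genes that passed the test rose. Of 68 symbols in the table, 38 were tested, and 11 were higher on Day 3 and 0 were lower (limma), where 12% of all genes were higher, and the median over the 38 was 0.69. Most levels were low, with 36 to 48 of the 68 symbols at 0 in a library. Some calls rest on few fragments, such as that of *Hist1h1b*, at 0 in both Day 0 libraries and at 2.73 and 1.55 FPKM on Day 3. The summed level of all 68 symbols was 438 and 296 FPKM on Day 0 and 751 and 844 FPKM on Day 3, while the proliferation markers fell. A large part of this sum was *Hist1h2bc*, at 172 and 113 FPKM on Day 0 and 238 and 183 FPKM on Day 3, which was not called (adjusted p = 0.1395, limma). *Hist2h2aa1*, which encodes an H2A, measured 17.9 and 9.87 FPKM at Day 0, 56.4 and 51.2 at Day 1, 105 and 143 at Day 2, then 141 and 217 at Day 3, a rise of 3.62 (SE 0.30, adjusted p = 0.000122, limma). *Hist1h4h*, which encodes an H4, rose by 3.59 (SE 0.50, adjusted p = 0.00100, limma) from 1.67 and 0 to 14.6 and 24.0 FPKM. The mRNAs of these genes end in a stem-loop and mostly carry no poly(A) tail, so poly(A)-selected libraries hold only a part of them. Many are near-identical copies whose fragments cannot be assigned with certainty. *Hist3h2a*, *Hist3h2ba* and *Hist2h3c2* are counted here and in the list of other histone genes. Of 6 genes that supply these mRNAs, 4 were lower on Day 3 and 0 were higher (limma), and after median ratio scaling 2 were lower and 1 was higher. *Slbp*, which binds the stem-loop, fell by 1.82 (SE 0.28, adjusted p = 0.00167, limma), and *Lsm11*, a part of the U7 particle that cuts the mRNA, fell by 1.33 (SE 0.36, adjusted p = 0.0197, limma).

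**Figure D4:**
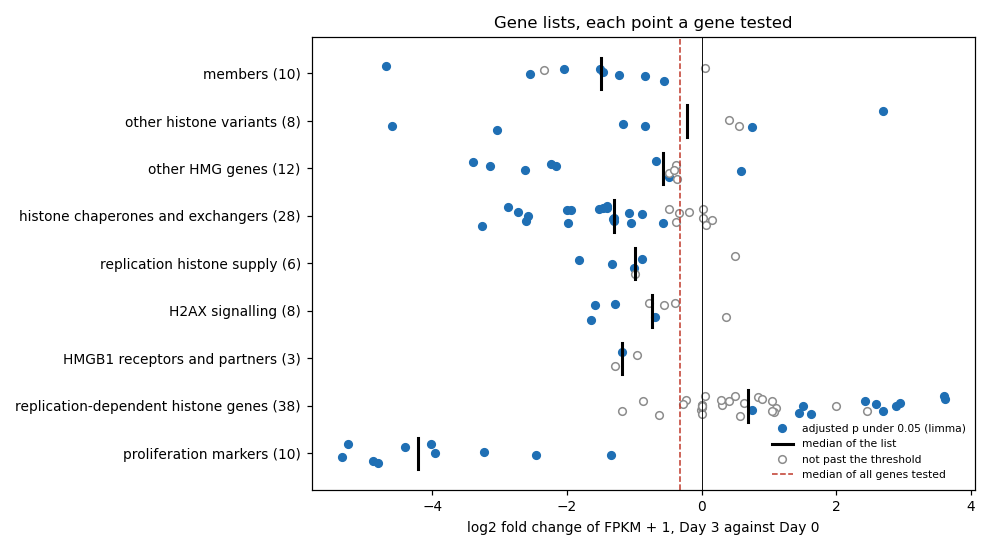
Log2 fold change of FPKM + 1 on Day 3 against Day 0 (horizontal axis) of the genes tested in each list (number in brackets, the 10 genes described here as members), with filled points for an adjusted p under 0.05 (limma), a black bar at the median of each list and a dashed line at the median of all genes tested. The black bar lies at -1.49 for the 10 genes, at -1.30 for chaperones, at -4.21 for proliferation markers and at 0.69 for replication-dependent histone genes.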

How the data were processed

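mRNA-seq libraries were made from 8 cultures with a stranded poly(A) kit, read as paired ends on a MiSeq system and processed by the authors in OmicSoft ArrayStudio, who deposited FPKM per gene and library (build mm10 in the submitters' processing notes). The aligner, the gene model and the use of strand in counting are not given in the sources used here. The labels and the methods name different media and RNA kits. FPKM leaves a shift between libraries uncorrected: the median log2 fold change of all genes from Day 0 to Day 3 was -0.31.

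The 12208 genes that reached 1 FPKM in 2 or more libraries were fitted on log2(FPKM + 1), where folds of low genes are understated, with limma 3.58.1 (R 4.3.3; eBayes with a trend, day as a factor, all 8 libraries), with Benjamini-Hochberg adjustment. Slopes were tested by exact permutation. Both were tested on simulated data. The 10 genes and all lists were chosen with earlier results of these data known. Named list genes were the 2 largest rises and falls from Day 0 to Day 3 past the threshold without overlap, and the 3 most similar courses per gene. Some genes of these lists and rules are not reported here. Replicates are described as independent cultures, and a test of 2 against 2 libraries by permutation alone could not go below p = 0.333. The main limma and slope tests did not pair the replicates. Replicate numbers were taken as pairs only in the replicate block and in the changes by replicate series. The replicate differences of every pair of days correlated across genes (r of 0.164 to 0.285). Positions and transcripts came from GENCODE M21, promoters from RefSeq. Depth rests on genes with 1 transcript, 63.2% to 69.1% of whose low values lay within 0.1 of a whole fragment. Alternatives were a pseudocount of 0.1, no filter, other scalings, the replicate block, leaving out each library and eBayes without a trend. The paper's other experiments were not analysed here.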

Additional observations from a re-analysis of the deposited data

How the results depend on the processing

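The counts of the 10 genes called lower on Day 1 and on Day 3 against Day 0 stayed within 1.5 times of 7 and 8 under every alternative, at 5 to 7 and 7 to 9 with each library left out. On Day 2 against Day 1 the count was 1, and it was 0 without the filter and with eBayes without a trend, and 0 to 2 with each library left out. The count of slopes called lower was 6, with 2 after median ratio scaling, 3 with the replicate block, which changed no other call among the 10 genes, and 2 to 5 with each library left out, where fewer arrangements raise the smallest possible p to 0.00317. A day left with 1 library was assumed to vary like the others. The slope differences ranged with each library left out from -0.46 to -0.32 for *H2afz* minus *H2afv*, from 0.13 to 0.22 for *H3f3a* minus *H3f3b* and from 0.86 to 1.26 for *Hmgb1* minus *Hmgb2*. The cause was not tested.

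Of the single-gene values, 608 kept their direction and side of the threshold, 56 lost a call, 5 gained 1 and 21 changed sign, each of the last not past the threshold. After median ratio scaling the sign changed for *H2afv* (0.0090) and *Hmgb1* (0.13) on Day 2 against Day 1 and for the slope of *H3f3a* (0.11), which was 0.043 with the libraries brought to the same sum. With each library left out, *H3f3a* ranged from -0.097 to 0.20 on Day 3 against Day 0 and its slope from -0.044 to 0.032. On Day 2 against Day 1, *H2afv* ranged from -0.46 to 0.098, *H2afx* from -0.35 to 0.87 and *Hmga1* from -0.93 to 1.99. On Day 3 against Day 2 the ranges were -0.13 to 0.032 for *H1f0*, -0.21 to 0.35 for *H2afv*, -0.44 to 0.77 for *H2afx*, -0.11 to 0.21 for *H2afy*, -0.14 to 0.16 for *H3f3a*, -1.83 to 0.39 for *Hmga1* and -0.091 to 0.33 for *Hmgb2*. The counts of all genes moved more. On Day 2 against Day 1 limma called 264 higher and 211 lower, which became 367 and 436 with the block, 154 and 93 without the filter, 82 and 39 with eBayes without a trend, 52 and 8 without Day 1 replicate 1, and 11 and 0 without Day 2 replicate 2 (551 and 1033 at an unadjusted p under 0.05). On Day 3 against Day 2 they went from 30 and 6 to 119 and 44 with the block, and to 0 and 0 with eBayes without a trend (864 and 779 at an unadjusted p under 0.05, limma).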

Other observations

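Markers of further cell types were near 0. The 5 microglia markers summed to at most 2.51 FPKM in a library and 4 of them were at 0 in all, the 5 neuron markers summed to between 1.23 and 10.2 FPKM, the 4 endothelial markers to at most 0.428 FPKM and the 3 mural cell markers to at most 2.20 FPKM. None of the microglia, neuron and mural cell markers that passed the filter was called on Day 3 against Day 0 (limma), and no endothelial marker passed it. Of the 6 astrocyte markers, 0 were called on Day 3 against Day 0 (limma), where *Gfap* measured 14.7 and 154 FPKM on Day 0 and 45.5 and 603 FPKM on Day 3. *Pcna*, the replication clamp, kept more of its Day 0 level than the mitotic markers, at 182 and 192 FPKM on Day 0 and 64.0 and 82.8 FPKM on Day 3, against 133 and 107 FPKM and 3.64 and 3.0 FPKM for *Mki67*.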
